A study of Mus musculus with 2 samples.

Results

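The hypoxia-induced genes described here were 10 genes named by symbol (Vegfa, Bnip3, Ndrg1, Adm, Egln1, Egln3, Ankrd37, Ddit4, Car9 and P4ha1), of 32285 genes counted in the single-cell RNA sequencing (scRNA-Seq) of GL261 cells. GL261 is a mouse glioma line of C57BL/6 origin, labelled as an astrocytoma. It was sequenced as 1 library of adherent cells, grown in serum-containing medium and detached with trypsin, and 1 library of neurosphere cells. Neurospheres are free-floating aggregates, here formed over 12 days after Epidermal Growth Factor and Fibroblast Growth Factor (both at 20 ng/ml) and B-27 were added to the same medium, and then broken up with trypsin and pipette tips. Cells of both cultures were frozen in medium with 10% DMSO before library construction with the 10x Genomics single cell 3' chemistry. The growth factors, B-27, the 12 days, the growth form, the trituration and the library changed together between the cultures, so their parts cannot be told apart. The question put to these genes was whether a subset of neurosphere cells held them at a high level together.

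Cells that lack oxygen stabilise the alpha subunit of hypoxia-inducible factor (HIF), which pairs with Arnt and binds DNA at hypoxia response elements with the core letters ACGTG or GCGTG. With oxygen present, the prolyl hydroxylases Egln1, Egln2 and Egln3 mark the alpha subunit for destruction through Vhl, and Egln1 and Egln3 are themselves HIF targets. In solid tumours, glioblastoma included, HIF target genes are known to be raised in regions far from blood vessels, and the list covers vessel growth (Vegfa, Adm), removal of mitochondria (Bnip3), growth control (Ddit4, Ndrg1), acid balance (Car9) and collagen maturation (P4ha1).

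Sequence before the transcript start was read for the members from RefSeq (GRCm38.p6), 250 bases a window, and both letter groups were searched on both strands. A window was found for 9 of 10 members, all but Ndrg1, with 2 windows for Vegfa. A match stood in 9 of the 10 windows, and in 38.6% of the 32851 windows of all genes (16.6% held ACGTG and 28.2% held GCGTG, and 16.7% held 2 or more matches). The windows of Bnip3 and Ankrd37, the pair of members found together most above the product of their shares in neurosphere cells, are shown with 1 window of Vegfa that held no match, all 5′ to 3′ on the strand of the gene with the matched letters in capitals.
Bnip3, chr7:138909507-138909756, minus strand: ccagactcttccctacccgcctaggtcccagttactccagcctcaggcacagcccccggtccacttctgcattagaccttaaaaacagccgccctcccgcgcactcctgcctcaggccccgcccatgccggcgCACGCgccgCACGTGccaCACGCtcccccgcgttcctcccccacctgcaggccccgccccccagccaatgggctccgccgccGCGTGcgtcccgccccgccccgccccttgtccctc
Ankrd37, chr8:45999851-46000100, minus strand: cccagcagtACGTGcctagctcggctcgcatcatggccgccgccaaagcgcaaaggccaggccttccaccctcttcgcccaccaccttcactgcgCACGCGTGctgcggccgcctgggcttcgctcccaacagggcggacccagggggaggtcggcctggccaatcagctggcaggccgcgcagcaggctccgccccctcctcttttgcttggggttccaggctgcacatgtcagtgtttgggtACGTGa
Vegfa, chr17:46032378-46032627, minus strand: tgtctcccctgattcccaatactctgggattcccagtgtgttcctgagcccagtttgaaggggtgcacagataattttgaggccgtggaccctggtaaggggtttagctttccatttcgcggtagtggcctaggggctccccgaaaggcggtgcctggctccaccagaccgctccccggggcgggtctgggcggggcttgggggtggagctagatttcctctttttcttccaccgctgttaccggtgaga
The Bnip3 window held 5 matches, of which 2 lie on opposite strands of the same CACGTG and overlap. The Ankrd37 window held 4 matches, of which 2 overlap in CACGCGTG. The other Vegfa window (chr17:46025164-46025413), which lies within the Vegfa gene (chr17:46016993-46032369), held 2 matches. A match is a description of letters and not a site of binding.

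After removal of mitochondrial and ribosomal genes and of low-quality cells, 5051 of 5764 adherent and 4276 of 4951 neurosphere cells were kept, with 46290996 and 64943938 unique molecular identifiers (UMIs, each standing for 1 captured RNA molecule). The median kept cell held 8260 UMIs in the adherent and 13198 UMIs in the neurosphere library. Levels are given as CPM, a gene's UMIs per 1000000 UMIs of the library, summed over the kept cells, and shares of cells are given after each cell was thinned at random to 5000 UMIs, which left 4464 adherent and 4196 neurosphere cells. There was 1 library per culture, so no test could be made, and every exact 95% interval covers counting error only. With 1 cell line, no cell type that should lack these genes was present to show the background of free RNA in shares of cells. Astrocyte markers were detected for 5 of 6 genes in both libraries, Aqp4 being at 0 UMIs and Gfap at 30 and 27 UMIs, while all 4 progenitor markers (Sox2, Nes, Vim, Olig2) were detected. Of the markers of other cells, the immune list summed to 227 UMIs in adherent and 78 UMIs in neurosphere cells with Ptprc at 1 and 0, the endothelial list to 61 and 208 UMIs with Cdh5 at 0 in both, and the erythroid list to 146 and 6 UMIs. The libraries shared 12 cell barcodes, of which 9 were kept in both.

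Over all cells, the members did not move as a block. Adm, Egln3 and Ankrd37 stood over 2-fold higher in neurosphere cells, Bnip3 was just under 2-fold higher, Egln1 and P4ha1 differed little, Vegfa and Ddit4 were at nearly the same CPM, and Ndrg1 was almost undetected. Together, the 10 members made up 285 CPM of the adherent library and 327 CPM of the neurosphere library (13196 and 21207 UMIs). Of the 9 members with at least 50 UMIs over both libraries, 3 had a neurosphere level over 2-fold above the adherent one and 0 a level below by as much. The shares over all 14654 genes with as many UMIs were 21.7% above and 11.7% below. The median log2 ratio of neurosphere to adherent CPM was 0.43 for the members and 0.32 for all genes. Scaling by trimmed mean of M-values (TMM) moved the median of all genes to 0.11 and the split to 16.1% higher and 14.5% lower, and keeping mitochondrial and ribosomal UMIs in the total moved it to 0.54 with 29.5% higher and 9.38% lower, so small ratios are read against that shift.

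**Figure D1:**
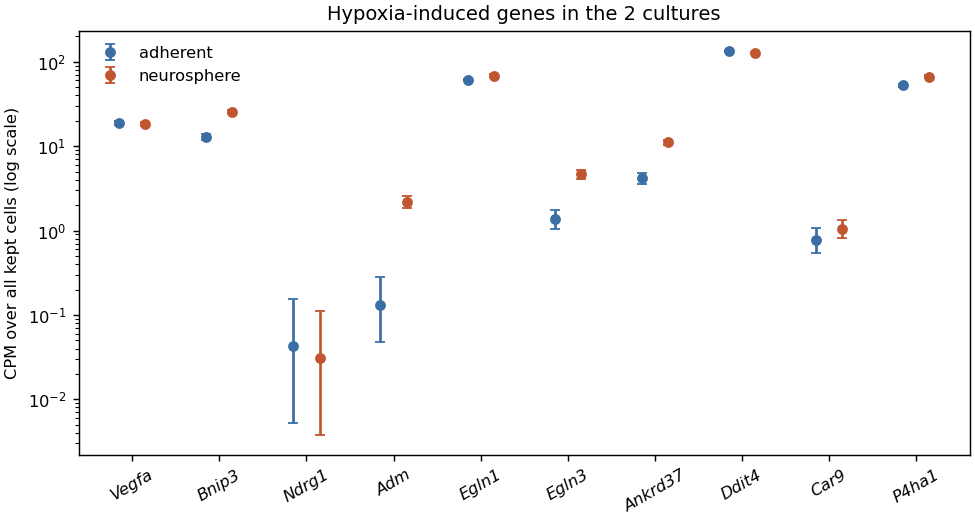
CPM of each of the 10 members over all kept adherent (blue) and neurosphere (orange) cells on a log axis, 1 library per culture, with exact Poisson 95% intervals for counting error. Adm, Egln3 and Ankrd37 lie apart between the cultures, Bnip3 less so, while Vegfa, Ddit4 and Car9 lie close and Ndrg1 rests on 2 UMIs in each.

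Among the secreted factors that act on vessels, Vegfa (ENSMUSG00000023951, GRCm38 chr17:46016993-46032369), the main growth factor for endothelial cells, had 871 UMIs or 18.8 CPM in adherent and 1192 UMIs or 18.4 CPM in neurosphere cells. The log2 ratio of -0.04 (-0.16 to 0.09) includes equal levels, and its sign followed the scaling, -0.25 with TMM and 0.18 with mitochondrial and ribosomal UMIs in the total. Adm (ENSMUSG00000030790, chr7:110627661-110629820), which encodes the vasodilator peptide adrenomedullin, had 6 UMIs (0.130 CPM) in adherent and 141 UMIs (2.17 CPM) in neurosphere cells, a log2 ratio of 4.07 (2.91 to 5.54). The gene was found in 95 of the 4276 kept neurosphere cells, and 1 cell alone held 14 of its UMIs.

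Of the oxygen-sensing hydroxylases, Egln1 (ENSMUSG00000031987, chr8:124908587-124949324) had 60.9 CPM in the adherent library and 68.6 CPM in the neurosphere one. The log2 ratio of 0.17 (0.10 to 0.24) turned to -0.04 with TMM scaling. Egln3 (ENSMUSG00000035105, chr12:54178981-54203860) rested on fewer counts, 63 UMIs (1.36 CPM) in adherent and 300 UMIs (4.62 CPM) in neurosphere cells, a log2 ratio of 1.76 (1.37 to 2.18). No adherent cell held more than 1 UMI of Egln3, and no neurosphere cell more than 3.

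Among the intracellular effectors, Bnip3 (ENSMUSG00000078566, chr7:138890836-138909519), a mitochondrial outer membrane protein that acts in mitophagy, had 599 UMIs (12.9 CPM) in adherent and 1649 UMIs (25.4 CPM) in neurosphere cells. Its log2 ratio was 0.97 (0.84 to 1.11), an interval that spans a 2-fold difference, and was 0.76 with TMM and 1.19 with mitochondrial and ribosomal UMIs in the total. Ankrd37 (ENSMUSG00000050914, chr8:45996902-46005707), an ankyrin repeat protein known as a HIF target, had 193 UMIs (4.17 CPM) and 720 UMIs (11.1 CPM), a log2 ratio of 1.41 (1.18 to 1.65). Ddit4 (ENSMUSG00000020108, chr10:59949669-59951834), an inhibitor of mTORC1 that other stresses than hypoxia also raise, had 133 CPM in the adherent library and 128 CPM in the neurosphere one. Its log2 ratio of -0.05 (-0.10 to -0.00) was -0.27 with TMM and 0.17 with mitochondrial and ribosomal UMIs in the total. Ndrg1 (ENSMUSG00000005125, chr15:66929318-66969640), a widely used hypoxia marker, had 2 UMIs in each library, below the floor of 3 counts, and no ratio is given.

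Of the enzymes of acid balance and matrix, Car9 (ENSMUSG00000028463, chr4:43506966-43513729), a carbonic anhydrase of the cell surface, had 36 UMIs (0.778 CPM) in adherent and 68 UMIs (1.05 CPM) in neurosphere cells, and its log2 ratio of 0.43 (-0.17 to 1.05) includes both equal levels and a 2-fold difference. P4ha1 (ENSMUSG00000019916, chr10:59323296-59373304), the catalytic subunit of a collagen prolyl hydroxylase, had 52.9 CPM and 66.8 CPM, a log2 ratio of 0.34 (0.26 to 0.41).

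Of 36 other HIF target genes listed, 32 had at least 50 UMIs over both libraries, with a median log2 ratio of -0.22 beside 0.32 for all genes. Of these, 3 were over 2-fold higher (Bhlhe40, Kdm3a, Kdm4b) and 8 over 2-fold lower, where 21.7% of all genes were higher and 11.7% lower, the same background as for the lists that follow. The lower ones included the glycolytic genes Ldha, 780 CPM in the adherent library and 317 CPM in the neurosphere one (log2 ratio -1.30), Aldoa (-1.09) and Tpi1 (-1.11), and Slc16a3, a lactate exporter (-1.62). The glucose transporter Slc2a1 went from 95.5 to 146 CPM (0.61) and Pdk1, which limits pyruvate entry to mitochondria, from 7.67 to 13.5 CPM (0.82). Among the 13 measured genes of HIF machinery, with a median of 0.60, Hif1a went from 36.9 to 167 CPM (2.18, 2.10 to 2.25) and Hif3a, whose splice forms include inhibitors of HIF, from 0.691 to 21.5 CPM (4.96, 4.45 to 5.51), both of them mRNA levels. Elob and Cited2 were over 2-fold lower (-1.13 and -1.02), and Epas1 had 0 UMIs in adherent and 1 UMI in neurosphere cells. Among 11 measured ligands and receptors of the VEGF and adrenomedullin pathways, 0 were over 2-fold higher and 6 lower, including Nrp2 (73.0 to 12.6 CPM) and the adrenomedullin receptor genes Calcrl (13.9 to 6.10 CPM) and Ramp2 (41.9 to 17.8 CPM). The integrated stress response list, which bears on Ddit4, had a median of -1.15 with 8 of 14 genes over 2-fold lower and 0 higher, and the immediate early and dissociation list a median of 0.95 with 6 of 12 higher and 2 lower. The G1/S list had a median of 0.66 with 4 of 15 over 2-fold higher, a share near that of all genes, and the G2/M list a median of -0.14 with 0 of 15 past 2-fold either way.

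In single cells, Bnip3, Ankrd37, Egln3 and Adm were found in a larger share of neurosphere cells, and the other members in shares close to those of adherent cells. At 5000 UMIs, Bnip3 had a UMI in 5.98% of adherent cells (5.30% to 6.72%) and 12.7% of neurosphere cells (11.7% to 13.7%), against 10.7% and 28.9% of the kept cells before thinning. Ankrd37 had a UMI in 1.86% and 5.70% of thinned cells, Egln3 in 0.582% and 2.24%, and Adm in 0.0448% and 0.834%. Vegfa was found in 9.18% and 8.89%, Egln1 in 25.7% and 28.5%, P4ha1 in 23.0% and 26.8%, Ddit4 in 43.2% and 42.9%, Car9 in 0.358% and 0.524%, and Ndrg1 in 0.0448% and 0.0238%. The highest counts in any cell were in neurosphere cells for all members but Ndrg1, where no cell of either library had more than 1 UMI. A single neurosphere cell held 20 UMIs of Bnip3 where no adherent cell held more than 4, and the highest counts were 40 against 6 for P4ha1, 15 against 6 for Egln1 and 47 against 26 for Ddit4, in unthinned cells.

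The number of members found together in a cell was close to what their separate shares give up to 3 members. A thinned adherent cell held a UMI of 1.10 members on average and a neurosphere cell of 1.29. At least 4 members were found in 40 adherent cells (0.896%, 0.641% to 1.22%) where the product of the members' shares gives 28.2 cells (0.631%), and in 83 neurosphere cells (1.98%, 1.58% to 2.45%) where it gives 68.7 cells (1.64%). At least 5 members were found in 3 adherent cells against 1.27, and in 16 neurosphere cells against 5.64. Exactly 6 members, the most in any cell, were found in 6 neurosphere cells and 0 adherent cells, which allows a share of adherent cells up to 0.0826%. All 6 of those neurosphere cells held Bnip3, Ankrd37, Egln1, Ddit4 and P4ha1. A cut at 4 members marks a range of this count and not a type, since 379 neurosphere cells held 3 members and 67 held 4.

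**Figure D2:**
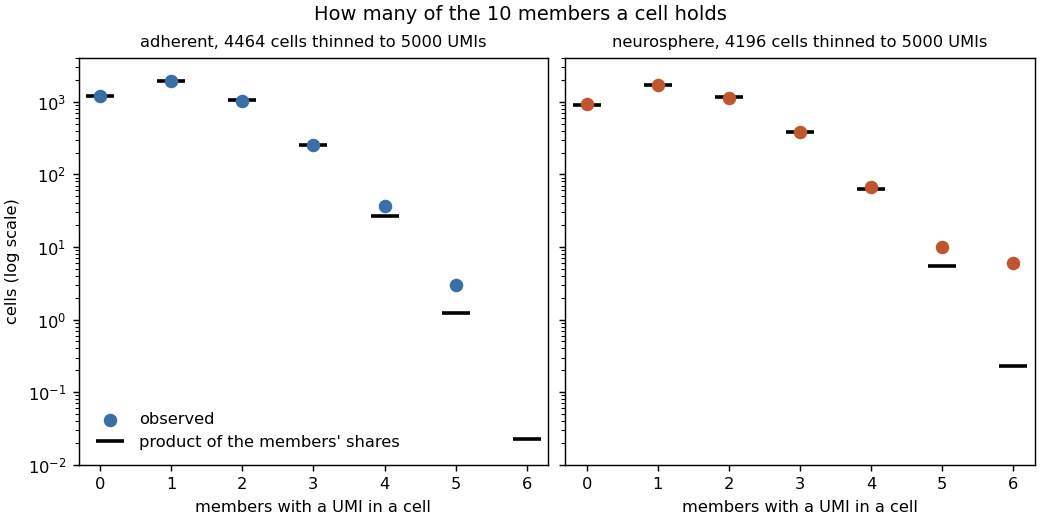
Number of cells (log axis) that hold a UMI of 0 to 6 of the members, after thinning to 5000 UMIs, in the adherent (left) and neurosphere (right) library, with black bars at the number that the product of the members' shares gives. Points and bars nearly coincide up to 3 members, the point at 4 members (37 cells) lies above the bar in adherent cells, and 16 neurosphere cells lie at 5 or 6 members where the product gives 5.64.

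Pairs of members were compared where the product of their shares gave at least 5 cells. In adherent cells, 18 pairs were seen together 1.02 times as often as the product, and 0 pairs had an interval above 1. In neurosphere cells, 27 pairs were seen together 1.04 times as often, and 2 had an interval above 1 when no correction was made for their number. Bnip3 and Ankrd37 were found in the same 49 cells against 30.3 (ratio 1.62, 1.20 to 2.14). Vegfa and Ddit4 were found in the same 187 cells against 160 (1.17, 1.01 to 1.35). These intervals count cells of 1 library, and cells are not replicates of a culture.

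To ask whether members rise in the same cells without using a gene to pick the cells it is then read in, the list was split by order. The cells were ranked by the members in odd places (Vegfa, Ndrg1, Egln1, Ankrd37, Car9) and the members in even places (Bnip3, Adm, Egln3, Ddit4, P4ha1) were read out, and the reverse. In the top 10% of neurosphere cells by the odd places (419 cells), Bnip3 had 38.8 CPM against 23.9 CPM in the other cells, a log2 ratio of 0.70 (0.49 to 0.90). Ddit4 had a log2 ratio of 0.21, P4ha1 of 0.07, Adm of -0.14 and Egln3 of -0.24 in those cells. In the top 10% by the even places, Ankrd37 had a log2 ratio of 0.71 (0.39 to 1.02) on 98 UMIs and Vegfa had 26.3 CPM against 17.6 CPM (0.58, 0.32 to 0.83), while Car9 had a ratio of 0.64 on 9 UMIs and Egln1 of 0.25. In adherent cells the ratios were 0.14 for Bnip3, 0.33 for Egln3, 0.06 for P4ha1 and -0.03 for Ddit4 by the odd places, and 0.55 (0.25 to 0.84) for Vegfa, 0.51 for Ankrd37 and -0.03 for Egln1 by the even places. No held-out member with at least 50 UMIs in its library passed 2-fold in any of these 4 contrasts, in which 0.595% and 1.34% (neurosphere, by odd and even places) and 0.288% and 0.593% (adherent) of all genes did. With another random thinning, adherent Egln3 passed it by the odd places (1.24, 0.19 to 2.19). Adherent Vegfa by the even places then had 0.27 (-0.06 to 0.58), and 0.03 (-0.32 to 0.36) with Ddit4 left out of the ranking. Neurosphere Vegfa had 0.69 (0.44 to 0.93) and 0.57 (0.32 to 0.81) under the same changes. With cells thinned to 3000 UMIs, Vegfa had 0.40 (0.10 to 0.70) in adherent and 0.26 (-0.02 to 0.53) in neurosphere cells. Neurosphere Ankrd37 had 0.48 (0.14 to 0.80) at 3000 UMIs and 0.36 (-0.02 to 0.72) at 8000 UMIs. The top 10% by both orders held 51 neurosphere cells where the product gives 41.8, and 48 adherent cells where it gives 44.6.

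In the top 5% of neurosphere cells (209 cells), Bnip3 had a log2 ratio of 1.14 (0.88 to 1.38) by the odd places, and by the even places Car9 had 1.13 (-0.37 to 2.34) on 6 UMIs, Ankrd37 0.93 (0.50 to 1.33) and Vegfa 0.83 (0.49 to 1.14). Thus 1 of 5 and 1 of 4 measured members passed 2-fold, as did 1.47% and 2.40% of all genes, and in the top 5% of adherent cells 0 of 4 and 0 of 3 did, against 1.15% and 1.41%. The next range, the top 1%, was added after these values were seen. In the top 1% of neurosphere cells by the members in odd places (41 cells), Bnip3 had 122 CPM against 24.6 CPM in the other cells, a log2 ratio of 2.31 (1.90 to 2.70), on 56 UMIs. Ddit4 had 211 CPM against 127 CPM (0.73, 0.43 to 1.02) and P4ha1 100 CPM against 66.4 CPM (0.59, 0.14 to 1.01), while Egln3 had a ratio of -0.09 (-3.14 to 1.77) on 2 UMIs and Adm of 1.61 (-0.68 to 3.19) on 3 UMIs. Of these 5 members, 2 passed 2-fold (Bnip3 and, on its 3 UMIs, Adm), as did 8.46% of all genes. In the top 1% by the even places, Ankrd37 had 51.0 CPM against 10.7 CPM (2.26, 1.65 to 2.81), Vegfa 49.1 CPM against 18.1 CPM (1.44, 0.82 to 2.00), Egln1 149 CPM against 67.7 CPM (1.14, 0.80 to 1.46) and Car9 7.56 CPM against 0.999 CPM (2.92, 1.00 to 4.34) on 4 UMIs. All 4 measured members passed 2-fold, as did 8.92% of all genes. The 2 rankings shared 6 of 41 cells, where the product gives 0.401 cells.

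Some of these ratios rest on few cells. Without the 1 cell that held most UMIs of the member, the ratio by odd places went to 1.72 for Bnip3, and by even places to 1.10 for Vegfa, 0.89 for Egln1, under 2-fold, and 2.13 for Ankrd37. With another random thinning the ratio of P4ha1 was 1.60 in place of 0.59 and that of Ddit4 1.05 in place of 0.73.

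A ranking by Bnip3 alone was also chosen after the data were seen, and it is not separate from the ranking by even places, of which Bnip3 is a member. In the top 1% of neurosphere cells by Bnip3, Vegfa had 65.7 CPM against 17.9 CPM (1.87, 1.35 to 2.35), Ankrd37 43.8 CPM against 10.7 CPM (2.03, 1.38 to 2.62), Egln1 155 CPM against 67.6 CPM (1.20, 0.87 to 1.51) and P4ha1 130 CPM against 66.1 CPM (0.97, 0.61 to 1.31). Egln3 had a ratio of 1.48 (0.15 to 2.54) on 7 UMIs and Ddit4 of 0.25 (-0.08 to 0.56). Adm had 0 UMIs in these 41 cells, which allows up to 6.74 CPM where the other cells had 2.19 CPM, so a lower level or a rise up to that bound was not detectable at this depth. Of the 8 measured members, 4 passed 2-fold (Vegfa, Egln1, Egln3, Ankrd37), as did 5.71% of all genes. Part of this depended on the thinning before ranking. With another random thinning, Vegfa had a ratio of 1.30 (0.62 to 1.90) and Ankrd37 of 1.84 (1.09 to 2.49), both still over 2-fold, while Egln1 had 0.42 (-0.04 to 0.84) and P4ha1 0.58 (0.14 to 0.99). With cells thinned to 3000 UMIs, Vegfa had 1.42, Ankrd37 1.09, Egln1 0.40, P4ha1 0.31 (-0.11 to 0.70) and Egln3 0.02. Without the cell that held most UMIs of the member, Vegfa had 1.65, Ankrd37 2.04 and Egln1 0.97.

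In the top 1% of adherent cells (44 cells) the held-out members lay closer to the other cells. By the odd places, Bnip3 had 19.3 CPM against 13.0 CPM (0.58, -0.56 to 1.51) on 9 UMIs, Ddit4 0.27 (-0.08 to 0.60) and P4ha1 -0.01, and Egln3 had 0 UMIs. None of the 4 measured members passed 2-fold, against 4.94% of all genes, but Bnip3 did so (1.35, 0.21 to 2.29) when cells were thinned to 8000 UMIs before ranking. By the even places, Vegfa had 0.27 (-0.86 to 1.20) on 9 UMIs, Egln1 -0.14 (-0.82 to 0.46) and Ankrd37 0.84 (-1.45 to 2.41) on 3 UMIs, and 0 of 3 measured members passed 2-fold, against 7.30% of all genes. On those few UMIs, Ankrd37 was past 2-fold (1.22, -0.67 to 2.60) when Ddit4 was left out of the ranking, and at -0.82 with another random thinning. By Bnip3, P4ha1 had 0.91 (0.40 to 1.37), Egln1 0.27, Ddit4 -0.05 and Vegfa -0.52 (-2.15 to 0.71), while Egln3 (3 UMIs) and Ankrd37 (4 UMIs) were the 2 of 6 measured members past 2-fold, against 6.70% of all genes. With another random thinning, Ankrd37 had 0.14, Egln3 had 0 UMIs and P4ha1 had 0.61 (0.08 to 1.10). P4ha1 had 0.26 (-0.29 to 0.75) with cells thinned to 3000 UMIs and 0.62 (-0.08 to 1.23) at 8000 UMIs. The 2 orders shared 1 of 44 adherent cells, where the product gives 0.434. The top 1% is not matched between the cultures, because it ends at 1 thinned UMI of Bnip3 in adherent cells, with 250 cells at that value, and at 2 UMIs in neurosphere cells, with 40 cells at that value. By the odd places, 112 adherent and 37 neurosphere cells tied at the lowest score taken, and 1195 and 189 in the top 10%, where ties were taken in file order. The difference between the cultures was not tested.

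**Figure D3:**
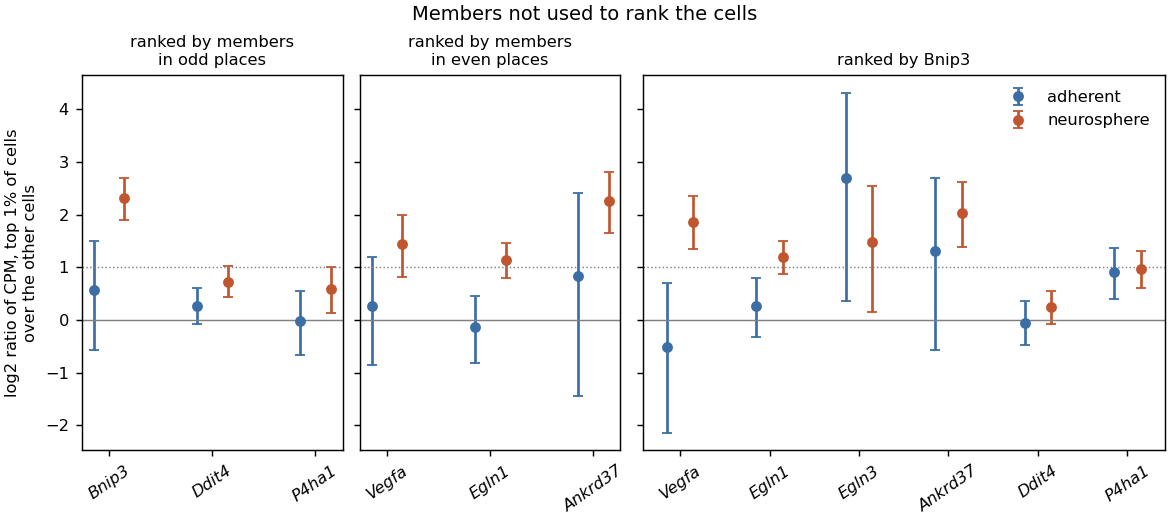
Log2 ratio of CPM in the top 1% of cells (44 adherent, 41 neurosphere) over the other cells, for members that did not rank the cells, under 3 rankings, with exact 95% intervals for counting error; the dotted line is a 2-fold difference. Members with few UMIs (Adm, Car9, Ndrg1, and Egln3 in the left panel) are not drawn, and the points above the dotted line are Bnip3, Ankrd37, Vegfa and Egln1 in neurosphere cells and, ranked by Bnip3, Egln3 in both cultures (1.48 in neurosphere, 2.69 in adherent) and Ankrd37 in adherent cells (1.32).

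HIF targets outside the list were read in the same neurosphere cells. Of 30 such genes with at least 50 UMIs, 8 were over 2-fold higher in the top 1% by the odd places, 12 by the even places and 13 by Bnip3, against 8.46%, 8.92% and 5.71% of all genes. Over 2-fold lower were 4, 2 and 4 of them, against 13.1%, 11.2% and 12.5% of all genes. In both cultures, a gene with 0 UMIs in the top cells was counted as lower. The lower counts and shares can therefore include genes too sparse to show a 2-fold drop. Their median log2 ratios were 0.73, 0.77 and 0.85, beside 0.01, 0.04 and -0.04 for all genes. With another random thinning the numbers higher were 13, 8 and 8 of 30, against 6.67%, 7.41% and 6.73% of all genes, and with cells thinned to 3000 UMIs they were 9, 15 and 6 of 30, against 6.64%, 9.54% and 4.99%. In the cells highest in Bnip3, Slc16a3 had 43.8 CPM against 2.39 CPM (4.20, 3.51 to 4.82) and Ak4, a mitochondrial adenylate kinase, 38.3 CPM against 6.40 CPM (2.58). In the same cells P4ha2, a separate gene related to P4ha1, had 29.2 CPM against 5.70 CPM (2.36), and Pdk1 40.2 CPM against 13.2 CPM (1.60). Ldha had 822 CPM against 313 CPM (1.39, 1.25 to 1.53) and Tpi1 674 CPM against 277 CPM (1.28), although both were lower in neurosphere than in adherent cells overall. Pgf, a ligand of the VEGF family, had 29.2 CPM against 2.06 CPM (3.82). Kdm3a (31.0 CPM against 36.1 CPM) and Rora (11.0 CPM against 13.3 CPM) were not higher, and Loxl2 had 0 UMIs in these cells. With another random thinning, Slc16a3 (3.96), Pgf (3.76), Ak4 (1.89), Pdk1 (1.61) and P4ha2 (1.28, -0.04 to 2.34) were still over 2-fold higher, while Ldha (0.73, 0.55 to 0.91) and Tpi1 (0.92, 0.74 to 1.10) were under it and Rora had 0.61. The HIF machinery list had a median of 0.08, with Hif1a at 252 CPM against 165 CPM (0.61). In adherent cells the medians of the other HIF targets were 0.28, 0.29 and 0.24 under the 3 rankings, with 1, 6 and 2 of 30 genes past 2-fold upward, against 4.94%, 7.30% and 6.70% of all genes, and 0, 2 and 2 past it downward, against 11.7%, 12.3% and 13.1%. Ldha had the ratio 0.45 by Bnip3.

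**Figure D4:**
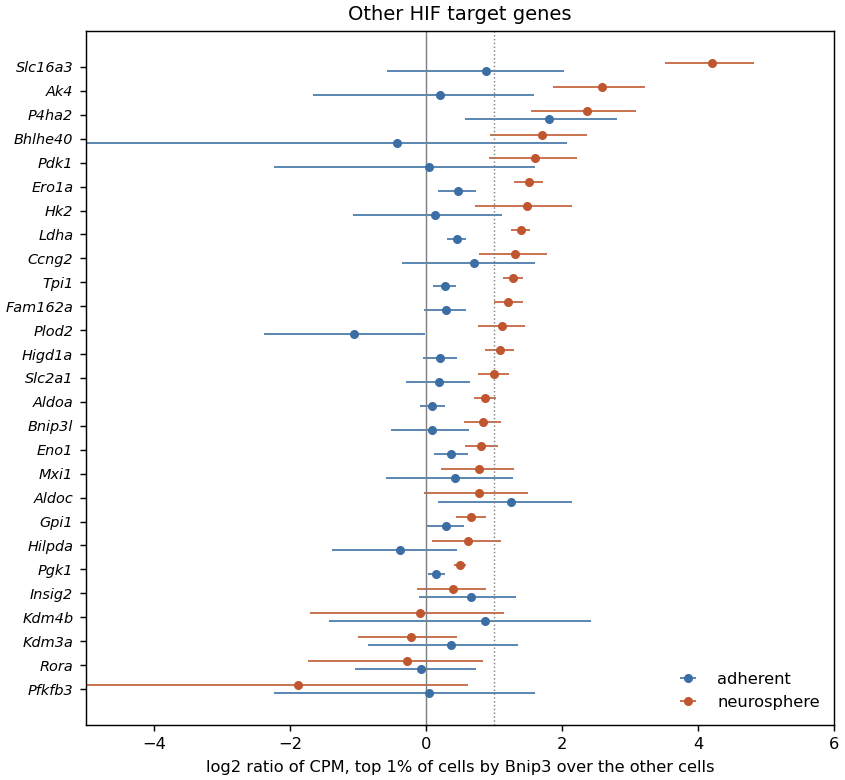
Log2 ratio of CPM in the top 1% of cells by Bnip3 over the other cells for HIF target genes that are not members, in the adherent (blue) and neurosphere (orange) library, with exact 95% intervals for counting error, cut at the left edge for the widest. Slc16a3 (4.20), Ak4 (2.58) and P4ha2 (2.36) lie highest in neurosphere cells, and every gene past 2-fold there lies lower in adherent cells.

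Depth and cell cycle moved with these cells. The top 1% of neurosphere cells by odd places, even places and Bnip3 had medians of 10331, 10446 and 11320 UMIs against 13408, 13395 and 13395 in the other cells. Mitochondrial UMIs were at medians of 3.96%, 3.80% and 3.80% against 3.97% in each. The G2/M genes summed to 3404 CPM against 4911 by odd places and 2728 against 4919 by even places, and to 4857 against 4901 by Bnip3. The G1/S genes summed to 1236 CPM against 1505, 788 against 1509 and 1311 against 1505, and by Bnip3 the median of that list was -0.31 with 1 of 15 genes higher. The immediate early list had medians of -0.21, 0.85 and -0.26 in the 3 contrasts, with 0, 5 and 0 of 12 genes over 2-fold higher. The integrated stress response list had 0.24, 0.74 and 0.35, with 2, 4 and 1 of 13 higher. The shares of all genes were 8.46%, 8.92% and 5.71%. Over 2-fold lower were 1, 8 and 0 of 15 G1/S genes and 2, 4 and 0 of 15 G2/M genes, against 13.1%, 11.2% and 12.5% of all genes. The part of these differences in the members' values was not tested.

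In the top 10% of neurosphere cells by all 10 members, the other HIF targets had a median of 0.24, beside 0.12 by the odd and 0.26 by the even places at the same share of cells, and 1 of 30, Slc16a3, was over 2-fold higher, against 0.975% of all genes. In adherent cells the median was 0.15 with 0 of 30, against 0.425%. Machinery genes had medians of 0.07 and 0.03, the G1/S list of -0.37 and -0.06, and the G2/M list of -0.46 and -0.18. Across the 4196 thinned neurosphere cells, the genes most correlated with the summed members were Btg2 (Pearson r 0.22), Pnrc1 (0.19), Grasp and Pdzd2 (0.15), Wipi1, Pak3, Podxl2 and Col18a1 (0.14), and Wnt6 and Krt8 (0.13), none of which is on the HIF lists, while Btg2 is on the immediate early and dissociation list. Hif1a had r 0.12, Slc2a1 0.07 and Pdk1 0.05 in these cells. In adherent cells, where the highest r was 0.10, the HIF target Ero1a was among the 10 most correlated genes (0.09). The members in odd places correlated with those in even places at r 0.06 in neurosphere and 0.00 in adherent cells (n = 4464). These are weak values in sparse counts over cells of 1 library, and Ddit4 alone held 8339 of the 21207 member UMIs of the neurosphere library.

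No cluster was made up of the cells with many members. The clusters were rebuilt with the parameters named in the study's methods, on the cells kept here and with another software version, so they and their numbers are not the study's own clusters. There were 10 clusters in each library, and the highest member CPM in a cluster was 1.70 times the library's in neurosphere cells and 1.23 times in adherent cells. In neurosphere cells, cluster 9 (75 cells, led by Cxcl2, Nppb and Ccl2) had 554 member CPM and cluster 1 (589 cells, led by Comp, Pdzd2 and Ism1) had 537, against 327 in the library. Vegfa reached 54.2 CPM in cluster 9, on 48 UMIs, and Ddit4 reached 288 CPM in cluster 4, while Ankrd37 (18.2 CPM), Egln1 (101 CPM), Egln3 (6.59 CPM) and Adm (4.59 CPM) were highest in cluster 1. Car9 was highest in cluster 5, at 3.22 CPM on 32 of its 68 UMIs, 3.07 times the library, although that cluster's member CPM was 238. Bnip3 had the smallest such ratio of the members, with its highest cluster at 1.27 times the library's CPM. The 16 cells with at least 5 members lay in 7 of the 10 clusters, with 4 cells in cluster 1, 3 in cluster 2, 2 each in clusters 0, 4, 6 and 9, and 1 in cluster 5. Cluster 1, with 589 of the 4276 cells, held 24 of the 83 cells with at least 4 members and 14 of the 41 top 1% cells by odd places, and cluster 4, with 447 cells, held 11 of the 41 by even places. Clusters 1 and 9 were shallower, with medians of 7623 and 9813 UMIs, and Ddit4, Adm and Car9 were among the variable genes that made the clusters, so these levels are a description. In adherent cells, member CPM was highest in cluster 4 (588 cells, led by Cd68, Mt3 and Mt4), at 349 CPM on 1385 UMIs. Adherent cluster 9 (48 cells, led by Lars2) was the shallowest, with a median of 2624 UMIs, and held 332 member CPM on few counts.

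**Figure D5:**
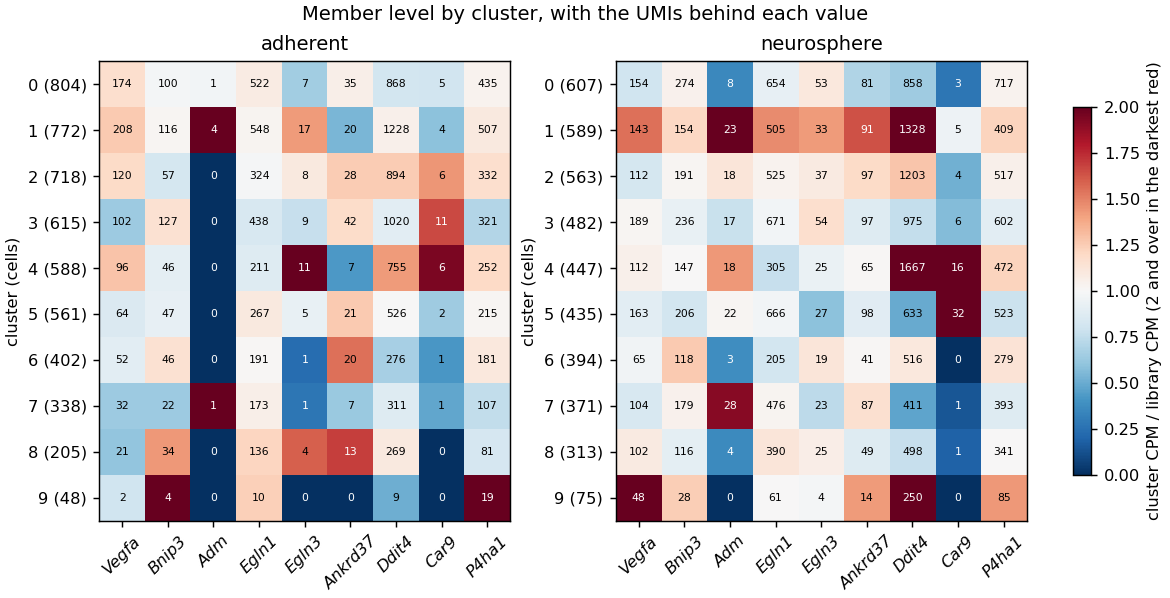
Member CPM in each cluster divided by the CPM of the whole library (colour, capped at 2), for the 9 members other than Ndrg1, in adherent (left) and neurosphere (right) clusters; the number in each field is the UMIs behind it, and cells per cluster are in brackets. Vegfa is highest in neurosphere cluster 9 and Ddit4 is high in clusters 1, 4 and 9, and Bnip3 is nearly even over the neurosphere clusters.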

How the data were processed

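The authors deposited raw UMI counts per gene and called cell for 1 adherent and 1 neurosphere library. The submitters' processing notes name Cell Ranger 7.0.1 and mm10, while the annotation and the use of intronic reads are not given in the sources used here. The 13 mitochondrial and 101 ribosomal genes were removed, and then cells with under 1000 UMIs or under 1250 (adherent) or 2250 (neurosphere) genes. Doublets were not called, and cells over the 95th percentile of UMIs were left out as an alternative. UMIs were summed per library and given as CPM, with exact conditional intervals for ratios, Poisson intervals for CPM and binomial intervals for shares. Intervals for pairs take the count of shared cells as Poisson. Groups came from the labels of the samples. Clusters used Seurat 5.3.0 in R 4.3.3 with 2000 variable genes, 17 (adherent) and 18 (neurosphere) PCs and a resolution of 1.0. Cells were ranked by summed log1p of UMIs per 10000 after thinning, ties in file order, and levels were read from unthinned counts.

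The members and gene lists were chosen with earlier results of these data known. Genes named are the members, genes of 7 lists, cell type markers, the 10 genes most correlated with the members among those with at least 100 UMIs, and the leading genes of clusters. Ero1a stands in the files as Ero1l. Gene lengths came from GENCODE on GRCm38, where 32158 of 32285 identifiers matched. Alternatives were TMM (edgeR 4.0.16), the total used for scaling, other cell filters, removal of a length trend (loess, span 0.5), thinning to 3000 or 8000 UMIs or with another seed, other shares of top cells, a resolution of 0.8 and clustering without the members. The top 1%, the ranking by Bnip3 and the removal of single cells were added after the data were seen. Figures were drawn with matplotlib 3.10.9, and the other steps ran in Python 3.11.15 (pandas 2.3.3, scipy 1.17.1, statsmodels 0.14.6, numpy 2.4.6). The interval of the ratio was checked on simulated data.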

Additional observations from a re-analysis of the deposited data

Results flagged for a closer look

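Barcodes removed by the cell filter, which no comparison above uses, also held UMIs of the hypoxia-induced genes. The 713 removed adherent barcodes held 115 UMIs of the 10 members in 392008 UMIs (293 CPM, against 285 CPM in the kept cells), and the 675 removed neurosphere barcodes held 209 UMIs in 574706 UMIs (364 CPM, against 327 CPM).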

How the results depend on the processing

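Of 257 alternative values for 41 results, 204 stayed within the counting interval set for the reported value or, for counts, within 1.5 times of it. Of the others, 47 moved past it, and 6 moved past it to the other sign. The 6 were the adherent held-out median in the top 1% by Bnip3 (-0.13 at 8000 UMIs and -0.07 with another seed, in place of 0.59), and the log2 ratios between the cultures of Egln1 with TMM scaling (-0.04), of Ddit4 with mitochondrial and ribosomal UMIs in the total (0.17) or the length trend removed (0.18), and of the G2/M list with mitochondrial and ribosomal UMIs in the total (0.08). Values whose interval includes 0 also changed sign, Vegfa to 0.18 with mitochondrial and ribosomal UMIs in the total and 0.04 with the length trend removed, and the adherent held-out medians to -0.02 (top 10% by odd places, without cells over the 95th percentile of UMIs), -0.05 (top 10% by even places, 8000 UMIs) and -0.42 (top 1% by even places, 3000 UMIs). A median over genes has no counting interval of its own, and was judged by that of its middle gene or the mean of its middle 2. For the members' median between the cultures this was the interval of Car9 (-0.17 to 1.05), a gene with few UMIs. The number of members over 2-fold higher was 3 or 4 under all alternatives. The share of neurosphere cells with at least 4 members was 0.795% at 3000 UMIs and 6.26% at 8000 UMIs, a measure that rises with depth by construction, and the ratio of shared neurosphere cells over all pairs was 1.12 at 3000 UMIs. Without thinning, the ratio of neurosphere to adherent detection was 1.54 in place of 1.17. The median held-out ratio in neurosphere cells ranked by odd places was 0.07 for the top 10% of cells, 0.26 for the top 5%, 0.73 for the top 1% and 0.26 at 3000 UMIs, and ranked by even places it was 0.61 for the top 10% and 1.85 for the top 1%. In the top 1% by odd places it was 1.05 with another seed, and in the top 1% by Bnip3 it was 0.16 at 3000 UMIs in place of 1.09. Of 30 other HIF targets, 13 in place of 8 were over 2-fold higher in the top 1% of neurosphere cells by odd places with another seed, and by Bnip3 6 (3000 UMIs) and 8 (another seed) in place of 13. The cause was not tested. No paired analysis was possible because each culture had 1 library and the labels give no replicate numbers. Genes with few UMIs, Ndrg1, Car9 and Adm above all, limit what any cell-level comparison of them can show.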
